A study of Mus musculus with 4 samples.

Results

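Marker genes of Paneth cells, 10 in number and leaving out the alpha-defensins, were followed in irradiated mouse intestinal organoids given SGC-CBP30 or vehicle. The 10 genes are Lyz1, Ang4, Itln1, Mptx1, Mptx2, Mmp7, Habp2, Pnliprp2, Clps and Nupr1. They were taken by gene symbol from the 51509 genes listed in the count table, and all 10 were found. The compound blocks the bromodomains, which read acetylated lysine, of the acetyltransferases CBP and p300. The compared groups were organoids given SGC-CBP30 and organoids given vehicle, with 2 libraries in each. All 4 libraries came from wild type C57BL/6 mice aged 8 to 12 weeks, and all received 8 Gy of irradiation 36 hours before RNA was taken. Every comparison is therefore between irradiated cultures. The treatment label of SGC-CBP30 replicate 2 reads SGC-CBP31, and its title was used to place it with SGC-CBP30. Fold changes of the members and counts of called genes were also computed without it. The labels do not say whether the replicates were separate cultures or animals, so p-values measure only the spread between these libraries, which may be technical.

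Paneth cells sit at the base of small intestinal crypts and release granules that hold antimicrobial proteins. They also supply growth and Wnt signals to neighbouring stem cells. Their granules hold lysozyme, ribonucleases, lectins and, in the mouse, alpha-defensins that are cut into active form by the protease encoded by Mmp7. In a bulk RNA measurement, fewer cells of a type and less RNA per cell cannot be told apart.

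Counts over the listed genes summed to 16433117 to 18087250 per library, and 20980 to 21933 of these genes had a count. Levels are given as CPM, counts scaled to these library sums with TMM factors. Differences are log2 fold changes with their standard error (SE), and a negative value means lower with SGC-CBP30. A gene was called where the Benjamini-Hochberg adjusted p of edgeR's quasi-likelihood test, fitted on 14684 genes, was under 0.05. Lyz1 stood at rank 26 and 27 by FPKM among all listed genes in SGC-CBP30 libraries and at rank 20 in both vehicle libraries, and Itln1 stood at ranks 51 to 54 in all 4. The defining genes of the label were thus present in every library, apart from Mptx1 with 8 counts in all.

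Habp2, Nupr1, Mptx2, Ang4 and Lyz1 were lower with SGC-CBP30 under every processing alternative tried. Their fitted levels were 50.2%, 58.8%, 61.8%, 74.0% and 76.6% of vehicle. Pnliprp2 and Clps were lower by less, at 89.1% and 80.1% of vehicle, and their calls depended on the processing. Itln1 and Mmp7, at 92.0% and 96.3% of vehicle, were not past the threshold. Mptx1 had too few counts to be tested. In all, 7 of the 9 tested members were called lower and 0 higher, and in the same 7 the SGC-CBP30 libraries lay below the vehicle libraries without overlap. Of all 14684 genes, 16.3% were called lower and 13.6% higher, 30.0% in either direction, and the groups did not overlap in 31.0% (lower) and 32.1% (higher). The calls over all genes were 2004 higher and 2397 lower, and 2907 higher and 1924 lower when scaled by library totals. The median log2 fold change was -0.38 over the 9 tested members and 0.0096 over all tested genes. The members were chosen with earlier results of these data known, so the count describes them and is not independent evidence. The share of mitochondrial genes in the counts over listed genes was also apart between groups. It was 5.25% and 5.99% in SGC-CBP30 libraries and 6.55% and 6.73% in vehicle libraries. Its part in the members' differences was not tested. Each of the 9 had 95 or more counts in every library, so none passed the filter on low counts through 1 group alone.

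**Figure D1:**
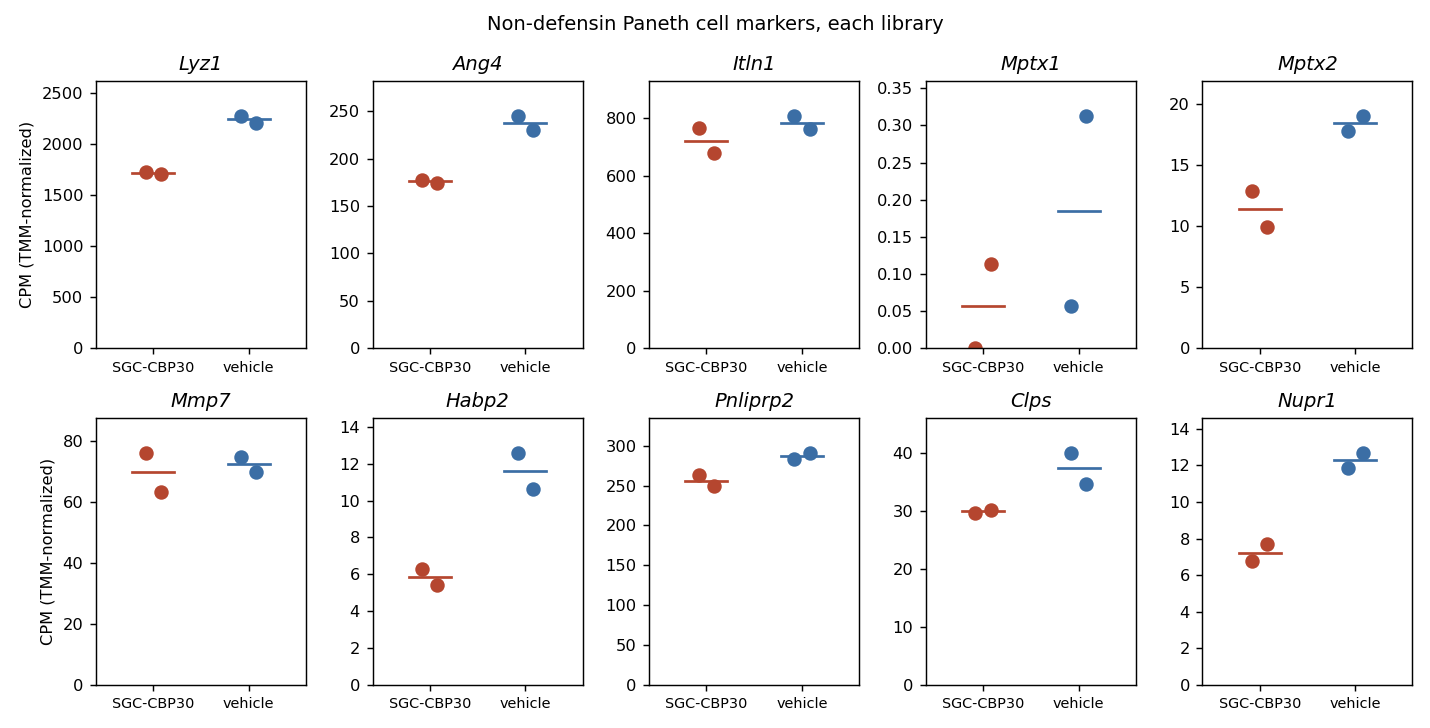
TMM-normalized CPM of each marker in each library, with SGC-CBP30 left of vehicle; points are libraries, lines are means of 2, and each panel has its own axis from 0. The groups are apart in 7 panels (Lyz1, Ang4, Mptx2, Habp2, Pnliprp2, Clps, Nupr1) and overlap in those of Itln1, Mptx1 and Mmp7.

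Pairs of members with near copies in the genome matter for how reads can be assigned, so their coding starts are shown with differing bases in capitals. Lyz1 and Lyz2 lie next to each other on chromosome 10, minus strand, and their coding sequences of 444 bases are 95.05% identical. Mptx1 (plus strand) and Mptx2 (minus strand) lie on chromosome 1, and their coding sequences of 657 bases are 91.9% identical. The 60 bases shown begin at the first coding base, which is position 117292838 for Lyz1, 117282242 for Lyz2, 174330573 for Mptx1 and 173277722 for Mptx2 on GRCm38. They were read from the GENCODE M21 transcripts.
Lyz1: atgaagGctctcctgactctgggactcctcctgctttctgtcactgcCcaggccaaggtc
Lyz2: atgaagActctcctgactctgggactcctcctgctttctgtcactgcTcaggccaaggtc
Mptx1: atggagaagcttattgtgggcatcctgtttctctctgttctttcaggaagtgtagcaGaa
Mptx2: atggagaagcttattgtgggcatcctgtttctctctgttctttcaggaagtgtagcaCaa
Within this stretch the lysozyme pair differs at 2 bases and the pentraxin pair at 1. Of the windows of 50 bases in annotated transcripts, 16.1% of Lyz1 windows also occur in Lyz2, and 134 of 745 Mptx2 windows also occur in Mptx1. For Ang4 the share was 4.70%, with Ang2 and Ang5, and for Pnliprp2 and Clps it was 0.

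The most abundant member was Lyz1 (ENSMUSG00000069515, chromosome 10, 117287797 to 117292868, minus strand, 4 exons), which encodes the lysozyme of Paneth cell granules, an enzyme that cuts bacterial cell walls. It had 1730.0 and 1708 CPM in SGC-CBP30 libraries and 2278 and 2210.0 CPM in vehicle libraries. The groups were well apart, and replicates differed by only 1.01-fold with SGC-CBP30 and 1.03-fold with vehicle. The log2 fold change of Lyz1 was -0.38 ± 0.06 (SE), with a 95% interval of -0.50 to -0.27 (edgeR adjusted p = 6.8e-06). Its near copy Lyz2, the lysozyme gene of macrophages and other myeloid cells, had 3 and 6 counts in SGC-CBP30 libraries and 10 and 4 in vehicle libraries. With so few Lyz2 counts, summing both genes left the log2 fold change at -0.38.

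Ang4 (ENSMUSG00000060615, chromosome 14, 51763878 to 51773590, minus strand, 2 exons) encodes an angiogenin, a secreted ribonuclease with antimicrobial activity that is made in mouse Paneth cells. Its level was 177 and 174 CPM in SGC-CBP30 libraries, against 245 and 230.4 CPM in vehicle libraries. Ang4 fell by 0.43 ± 0.06 (SE) on the log2 scale (edgeR adjusted p = 7.16e-06). Its interval, -0.56 to -0.31, overlapped most of that of Lyz1. The ratio of Ang4 to Lyz1 was nearly constant over the libraries, at a log2 value of -3.29 and -3.29 with SGC-CBP30 and -3.22 and -3.26 with vehicle.

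The lectin and pentraxin genes, whose proteins bind sugars or surfaces of microbes, did not move alike. Itln1 (ENSMUSG00000038209, chromosome 1, 171518122 to 171535294, minus strand) encodes intelectin 1, a lectin that binds microbial glycans and is known from both Paneth and goblet cells. It had 765 and 678 CPM in SGC-CBP30 libraries and 808 and 761 CPM in vehicle libraries, and SGC-CBP30 replicate 1 lay within the vehicle range. Its log2 fold change of -0.12 ± 0.06 (SE), interval -0.25 to 0.008, missed the threshold (edgeR adjusted p = 0.155). Without SGC-CBP30 replicate 1 the value was -0.21 (adjusted p = 2.2e-06), without SGC-CBP30 replicate 2 it was -0.036, without vehicle replicate 1 it was -0.076, and scaled by library totals it was -0.048. Over all alternatives the adjusted p ran from 2.2e-06 to 0.668. The summed level of 13 goblet cell markers was 4910.2 and 4947 CPM in SGC-CBP30 libraries and 4899.7 and 4767 CPM in vehicle libraries. All 13 were detected.

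Mptx2 (ENSMUSG00000079180, chromosome 1, 173274382 to 173277777, minus strand, 2 exons) encodes a mucosal pentraxin of the family of C-reactive protein. Its 12.9 and 9.90 CPM in SGC-CBP30 libraries lay below the 17.8 and 19.0 CPM in vehicle libraries. SGC-CBP30 replicates differed by 1.299-fold, the widest gap between replicates of any tested member. Mptx2 fell by 0.70 ± 0.15 (SE) on the log2 scale, interval -0.997 to -0.39 (edgeR adjusted p = 6.94e-04), and its fold change lay lower than that of all but 9.66% of tested genes. Its copy Mptx1 (ENSMUSG00000026531, chromosome 1, 174330518 to 174332873, plus strand) had 0 and 2 counts in SGC-CBP30 libraries and 1 and 5 in vehicle libraries. Scaled for depth, the summed Mptx1 counts gave a ratio of 0.324 with an exact 95% counting interval of 0.0320 to 1.81, so no difference was detectable at this depth. With Mptx1 added to it, Mptx2 had a log2 fold change of -0.70.

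Both protease genes were measured well enough to be tested. Mmp7 (ENSMUSG00000018623, chromosome 9, 7692090 to 7699585, plus strand, 6 exons) encodes matrilysin, which activates mouse alpha-defensins. It had 76.3 and 63.3 CPM in SGC-CBP30 libraries and 75.0 and 69.8 CPM in vehicle libraries. The SGC-CBP30 values lay on either side of the vehicle values, so the groups overlapped. Its log2 fold change was -0.054 ± 0.086 (SE), interval -0.23 to 0.12 (edgeR adjusted p = 0.697). The direction of Mmp7 depended on the libraries and the scaling. Its value was -0.198 (adjusted p = 0.0494) when SGC-CBP30 replicate 1 was left out, 0.075 (adjusted p = 0.523) when replicate 2 was left out, and 0.019 when scaled by library totals. Over all alternatives its adjusted p ran from 0.0494 to 0.998. The antisense gene AV064505, which shares 123 exonic bases with Mmp7, had 4 counts in SGC-CBP30 replicate 2 and 0 in the other libraries.

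Habp2 (ENSMUSG00000025075, chromosome 19, 56287137 to 56320822, plus strand, 14 exons) encodes a secreted serine protease that binds hyaluronan and acts on coagulation proteins in plasma. It showed the largest fall among the tested members. Its level was 6.28 and 5.40 CPM in SGC-CBP30 libraries, against 12.6 and 10.6 CPM in vehicle libraries, from 107 and 95 counts with SGC-CBP30 and 223 and 170 with vehicle. Habp2 fell by 0.99 ± 0.18 (SE) on the log2 scale, interval -1.38 to -0.61 (edgeR adjusted p = 1.77e-04). Only 5.77% of tested genes had a lower fold change. Habp2 shares 268 exonic bases with Nrap on the opposite strand, and the use of strand in counting is not given. Nrap had 64 and 56 counts in SGC-CBP30 libraries and 34 and 39 in vehicle libraries.

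The pair of lipid digestion genes was lower by little. Pnliprp2 (ENSMUSG00000025091, chromosome 19, 58759723 to 58777533, plus strand, 12 exons) encodes a lipase related to pancreatic lipase that splits galactolipids and triglycerides. It had 263 and 249 CPM in SGC-CBP30 libraries and 284 and 291 CPM in vehicle libraries, without overlap. Pnliprp2 fell by 0.17 ± 0.06 (SE) on the log2 scale (edgeR adjusted p = 0.0403). Left out of the fit in turn, vehicle replicate 1 gave -0.185 (adjusted p = 0.231) and vehicle replicate 2 gave -0.142 (0.401), neither called. The call was also lost at -0.17 in DESeq2 (0.0702), at -0.153 with no filter (0.0850) and at -0.093 when scaled by library totals (0.244). Over the alternatives the adjusted p ran from 3.6e-04 to 0.401.

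Clps (ENSMUSG00000024225, chromosome 17, 28558149 to 28560766, minus strand, 3 exons) encodes colipase, the cofactor that anchors pancreatic lipase to fat droplets. Its 29.6 and 30.3 CPM in SGC-CBP30 libraries lay below the 40.1 and 34.6 CPM in vehicle libraries. Clps fell by 0.32 ± 0.10 (SE) on the log2 scale, interval -0.53 to -0.11 (edgeR adjusted p = 0.0211). Without vehicle replicate 1, the higher of the vehicle libraries, the value was -0.21 (adjusted p = 0.334). The call was also lost in DESeq2 (0.0736) and with library totals (0.0724), and the adjusted p ran from 0.00994 to 0.334 over the alternatives. Both genes are also known from pancreatic acinar cells. Of 14 acinar markers, 8 had no count in any library, among them Cpa1, Prss2, Amy2a5 and Try4, and their summed level was 22.4 and 19.9 CPM in SGC-CBP30 libraries and 26.5 and 24.5 CPM in vehicle libraries. None of the 3 tested acinar markers was called by edgeR (2 had an unadjusted p under 0.05) or by DESeq2. Pancreatic lipase itself, Pnlip, had a log2 fold change of -0.38 ± 0.16 (edgeR adjusted p = 0.0744).

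Nupr1 (ENSMUSG00000030717, chromosome 7, 126623249 to 126630861, minus strand, 3 exons in its coding transcript) encodes a small chromatin protein that is induced by cell stress. It had 6.75 and 7.68 CPM in SGC-CBP30 libraries and 11.9 and 12.7 CPM in vehicle libraries, and the groups were clearly apart. Nupr1 fell by 0.77 ± 0.17 (SE) on the log2 scale, interval -1.12 to -0.42 (edgeR adjusted p = 0.00112). Nupr1 is a known target of the integrated stress response, the ATF4-led programme switched on when protein synthesis is restrained. In that response 15 genes were tested: 5 rose and 2 fell, and 8 missed the threshold, with a median log2 fold change of 0.24. The share called lower was 13.3%, near the 16.3% of all tested genes, of which 13.6% were called higher. Scaled by library totals, 9 rose and 2 fell. Vldlr, a lipoprotein receptor gene, rose by 0.91 ± 0.09, the serine synthesis gene Phgdh by 0.57 ± 0.11 and the asparagine synthetase gene Asns by 0.44 ± 0.08. Slc7a11, a cystine transporter gene, fell by 0.93 ± 0.13 (all edgeR, adjusted p of 2.53e-04 or less). Cebpb also fell, by 0.57 ± 0.13 (edgeR adjusted p = 0.00186), and Atf4 itself was not called, at -0.025 ± 0.065. Nupr1 thus went the same way as Slc7a11 and Cebpb and the other way from 5 of the 7 called genes of the list.

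**Figure D2:**
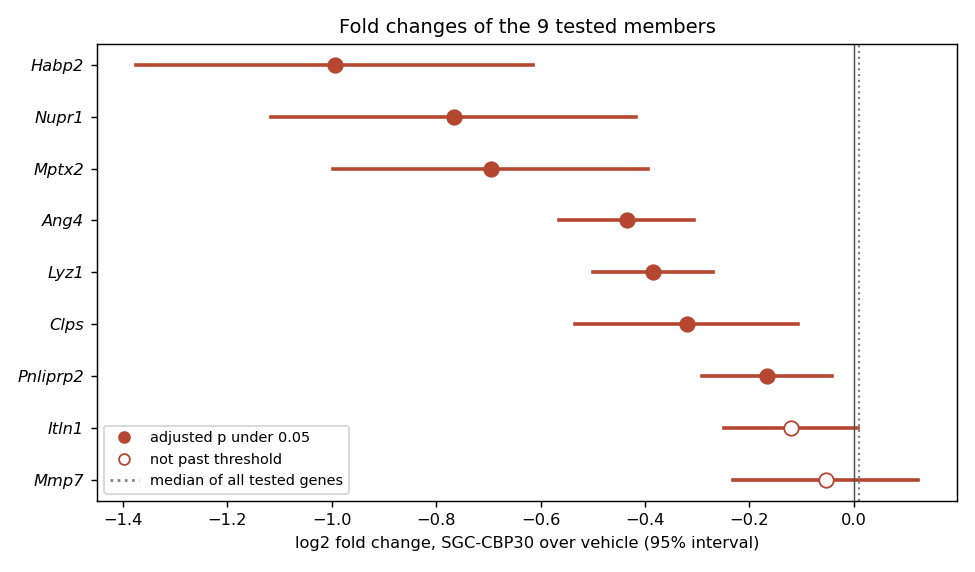
Log2 fold change (SGC-CBP30 over vehicle) and 95% interval of the 9 tested members; filled points are past the adjusted p threshold and the dotted line is the median of all tested genes. Habp2 at -0.99 is lowest and Mmp7 at -0.054 is nearest to 0.

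To compare levels between genes, the deposited FPKM values, which scale by gene length, were used. The order was the same by group mean in both groups, from Lyz1 at the top through Itln1, Ang4, Pnliprp2, Mmp7, Clps, Mptx2, Nupr1 and Habp2 to Mptx1. Lyz1 averaged 1356 ± 13.1 FPKM with SGC-CBP30 and 1769 ± 31.3 FPKM with vehicle (SD, n = 2 each). At the low end of the tested members, Habp2 averaged 1.82 ± 0.195 FPKM with SGC-CBP30 and 3.62 ± 0.422 FPKM with vehicle. The closest neighbours by ratio were Mmp7 and Clps in vehicle libraries, at 67.5 ± 3.14 and 60.9 ± 6.10 FPKM, whose means lay within their summed spread.

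Relative to Lyz1, the members took different directions. The log2 ratio of Itln1 to Lyz1 was -1.18 and -1.33 in SGC-CBP30 libraries and -1.50 and -1.54 in vehicle libraries, so Itln1 took a larger share beside Lyz1. Mmp7 had log2 ratios of -4.50 and -4.75 with SGC-CBP30 and -4.92 and -4.98 with vehicle. For Habp2 the ratios were -8.11 and -8.30 with SGC-CBP30 and -7.50 and -7.70 with vehicle. The ratios of Itln1, Mmp7 and Pnliprp2 were higher with SGC-CBP30 without overlap, those of Ang4, Habp2, Mptx2 and Nupr1 lower, and those of Clps overlapped. With 2 libraries a group an exact two-sided permutation test cannot go below p = 0.333, the value each of the 7 reached. Lyz1 itself was lower with SGC-CBP30, so a gene that did not change also has a higher ratio to it. In their own CPM, Itln1 and Mmp7 overlapped between groups. The share of all genes whose ratio to Lyz1 did not overlap was not computed.

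**Figure D3:**
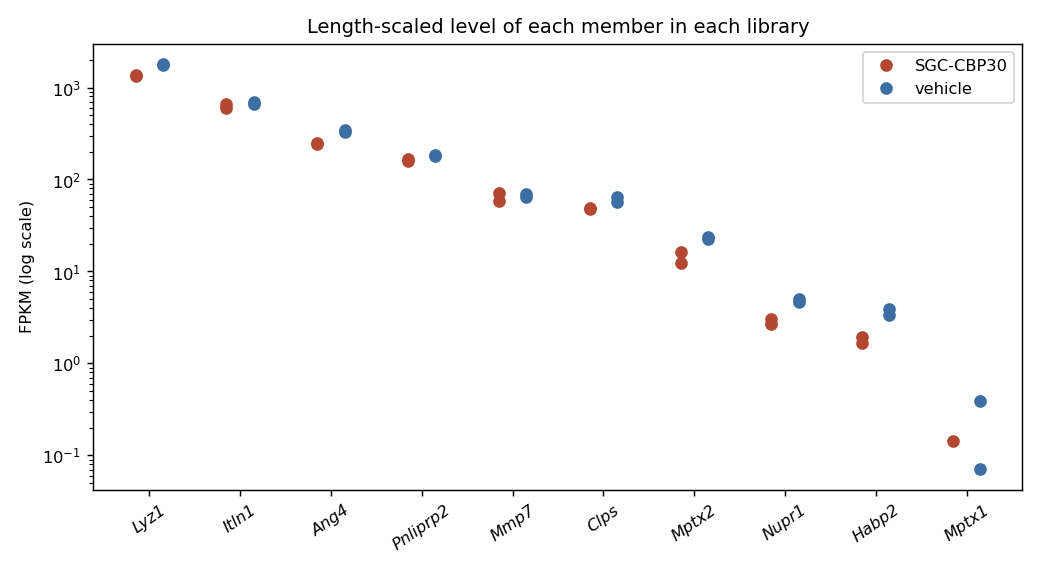
Deposited FPKM of each marker in each library on a log axis, ordered by the vehicle mean, with SGC-CBP30 left of vehicle. Mptx1 in SGC-CBP30 replicate 1 was at 0 and is not drawn; the order of group means is the same in both groups.

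Promoter sequence was examined for the 9 members that RefSeq promoter tables of GRCm38.p6 held. The 250 bases before each annotated start were searched on both strands for the TCF/LEF core letters CTTTGA, the E-box letters CAGCTG and the TATA box letters TATAAA. Among the members, CTTTGA was found for Mmp7, Mptx1 and Pnliprp2, CAGCTG for Nupr1, and TATAAA for Mmp7 and Mptx1. Mmp7 has 2 annotated starts, and both were searched. Its TATAAA matches are before start 1. Its CTTTGA match is before start 2 only, in bases 7692091 to 7692340, which lie past start 1 at 7692090. Of 32841 promoters of the same length, 13.8% held CTTTGA, 13.0% CAGCTG and 12.4% TATAAA. These shares are per promoter, while Mmp7 was counted over both starts. The 100 bases before start 1 are shown for Lyz1 and Ang4, which fell by similar amounts, and for Mmp7, which was not called. The searched letters are in capitals. Variants of these letters were not searched, so lower case does not mean that such an element is absent.
Lyz1: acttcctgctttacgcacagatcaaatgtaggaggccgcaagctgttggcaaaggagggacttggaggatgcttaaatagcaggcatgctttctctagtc
Ang4: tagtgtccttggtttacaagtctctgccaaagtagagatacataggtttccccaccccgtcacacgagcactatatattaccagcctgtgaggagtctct
Mmp7: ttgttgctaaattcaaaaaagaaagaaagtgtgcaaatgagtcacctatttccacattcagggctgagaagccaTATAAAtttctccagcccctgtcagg
These are chr10:117292869-117292968 on the minus strand for Lyz1, chr14:51773591-51773690 on the minus strand for Ang4 and chr9:7691990-7692089 on the plus strand for Mmp7. The match shown for Mmp7 runs from 26 to 21 bases before start 1. A match of letters is a description and not a bound site.

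Other genes of the Paneth lineage were counted from fixed lists. Among 39 genes and pseudogenes whose symbols begin with Defa, 18 were tested, 7 fell and 0 rose. The share called lower was 38.9%, against 16.3% of all tested genes, of which 13.6% were called higher. The median log2 fold change of the 18 was -0.52, and all 18 were below 0. Genes with few counts weigh as much in this median as abundant ones. Of the abundant ones, Defa24 was at -0.047 ± 0.14 and Defa30 at -0.097 ± 0.08, neither called. The lowest, Defa2 at -3.67 ± 2.01, was not called and had 14 and 10 counts with SGC-CBP30 and 290 and 19 with vehicle. The called ones of smallest p were Defa-ps6 (-1.79 ± 0.37), Defa34 (-0.44 ± 0.10), Defa-ps1 (-2.80 ± 0.64) and Defa29 (-0.50 ± 0.13). Defa-ps1 had 4 and 3 counts with SGC-CBP30 and 25 and 24 with vehicle. It passed the filter on low counts through the vehicle libraries alone, so its direction was set by the filter and its call is not evidence. Defa24, the most abundant alpha-defensin (picked after the values were seen), had 922 and 699 CPM in SGC-CBP30 libraries and 820.2 and 855 CPM in vehicle libraries, and like Mmp7 its groups overlapped. Alpha-defensins are close copies of each other, so reads may be split among them. The summed level of the 39 was 1488 and 1176 CPM in SGC-CBP30 libraries and 1432 and 1458 CPM in vehicle libraries, so the sums overlapped although the median was negative. Leaving out SGC-CBP30 replicate 1 gave 12 lower and 0 higher, and leaving out SGC-CBP30 replicate 2 gave 4 lower and 1 higher.

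Of 15 other Paneth granule and antimicrobial genes, 11 were tested, 5 fell and 0 rose. The share called lower was 45.5%, against 16.3% of all tested genes, of which 13.6% were called higher. Pigr, the antibody transport receptor gene, fell by 1.02 ± 0.06 on the log2 scale. Among the lectin genes Reg3a fell by 2.36 ± 0.07 and Reg3b fell by 1.86 ± 0.06, and the uroguanylin gene Guca2b fell by 0.72 ± 0.06. These genes are also expressed in enterocytes.

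Genes that direct Paneth cell fate or act in the crypt niche gave a mixed picture. Of 22 tested, 4 fell, 1 rose and 17 missed the threshold, with a median log2 fold change of -0.10. The share called lower was 18.2%, near the 16.3% of all tested genes. Of all tested genes, 13.6% were called higher and 30.0% in either direction. The unfolded protein sensor gene Ern1 fell by 0.43 ± 0.08 (SE), the Notch ligand gene Dll1 by 0.39 ± 0.09 and Rab8a, a gene of vesicle traffic, by 0.28 ± 0.07. The EGF receptor ligand gene Tgfa rose by 0.36 ± 0.09. Without vehicle replicate 1 the count was 3, with none higher.

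Markers of other cells moved beside these results. For comparison, 16.3% of all tested genes were called lower and 13.6% higher. Of 13 goblet cell markers 6 fell, among them Ccl6 (-2.30 ± 0.15), Ccl9 (-2.69 ± 0.23) and Guca2a (-0.55 ± 0.06), and 1 rose, Muc2 (0.24 ± 0.07). That total of 7 became 3 without vehicle replicate 1 and 4 without vehicle replicate 2, and in both Muc2 was no longer called. Scaled by library totals, 3 goblet cell markers rose and 3 fell. In the main fit the goblet cell markers not called were Tff3 (0.0016 ± 0.06), Fcgbp (0.11 ± 0.06), Spink4 (0.11 ± 0.06), Zg16 (-0.067 ± 0.07), Spdef (-0.39 ± 0.15) and Tpsg1 (-0.21 ± 0.25). Of 14 immune and mesenchymal markers only 4 had counts enough to be tested. Csf1r, a macrophage receptor gene, fell by 1.95 ± 0.43, from 13 and 11 counts with SGC-CBP30 against 53 and 38 with vehicle. The other tested genes, Cd68 (0.19 ± 0.40), Itgam (-1.02 ± 0.52) and Pecam1 (-0.25 ± 0.51), were not called. Collagen genes of mesenchymal cells, picked after the values were seen and too low to be tested, ran the other way from Csf1r. Col3a1 had 16 and 7 counts in SGC-CBP30 libraries against 1 and 1 in vehicle libraries, and Col1a1 had 9 and 2 with SGC-CBP30 against 0 and 0 with vehicle. Pdgfra (16 and 4 counts with SGC-CBP30, 2 and 8 with vehicle) and Dcn (0 and 5, 4 and 0) overlapped between groups and were not tested either. With no filter, and without SGC-CBP30 replicate 2, 1 marker of this list was called higher and 1 lower. The 14 together summed to 6.93 and 5.86 CPM in SGC-CBP30 libraries and 8.88 and 6.88 CPM in vehicle libraries. Of 5 epithelial markers the keratin genes Krt8 (0.49 ± 0.06) and Krt20 (0.43 ± 0.07) rose. Epcam (0.040 ± 0.06), Vil1 (0.093 ± 0.06) and Cdh1 (0.14 ± 0.06) were not called. The 5 summed to 7336 and 6841 CPM in SGC-CBP30 libraries and 5797 and 5826 CPM in vehicle libraries. Within these sums Krt8 averaged 2931 CPM with SGC-CBP30 and 2092 CPM with vehicle. Summed over the 10 Paneth members, the level was 3067 and 2926.5 CPM in SGC-CBP30 libraries and 3772 and 3640 CPM in vehicle libraries. The part of other cell types in the members' differences was not tested.

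**Figure D4:**
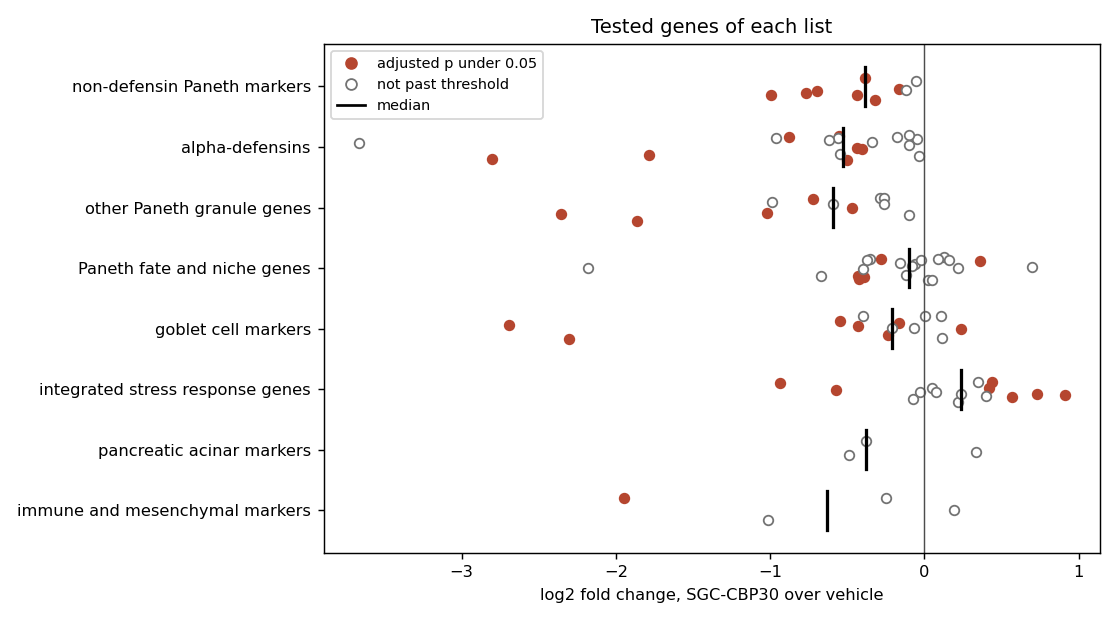
Log2 fold changes (SGC-CBP30 over vehicle) for the tested genes of each list; filled points are past the adjusted p threshold, open points are not, and black bars are medians. The non-defensin Paneth markers have a median of -0.38, the alpha-defensins -0.52 and the stress response genes 0.24.

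The authors' deposited table gave log2 fold changes for Lyz1, Ang4, Habp2, Mptx2 and Nupr1 of -0.38, -0.43, -0.99, -0.70 and -0.77. In the authors' deposited table these 5 members were under an adjusted p of 0.05, at 4.31e-12, 1.03e-07, 0.00267, 0.0105 and 0.0174, while Pnliprp2 (0.0798) and Clps (0.118) were not.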

How the data were processed

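RNA sequencing libraries of organoids were compared, 2 from SGC-CBP30 and 2 from vehicle treatment. The submitters' processing notes name featureCounts 1.5.0-p3, HISAT2 2.0.5 and StringTie 1.3.3b, with no role or strand setting, and the build mm9. The deposited coordinates are those of GRCm38: 98.5% of 51487 identifiers shared with GENCODE M21 had identical coordinates, as had 9 of the 10 members, and Pnliprp2 differed by a few bases at its ends.

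Per the file headers, the authors deposited raw counts per gene and library, FPKM, group means (a signal on the scale of normalized counts), a log2 fold change with its p-value, gene length in bases (another column) and coordinates. Of 51509 listed genes, 26144 had a count. The table was held in part, and genes past its end were not used here.

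The counts entered edgeR 4.0.16 in R 4.3.3 (filterByExpr, TMM, robust quasi-likelihood F test, Benjamini-Hochberg over 14684 genes). SE is the fold change divided by the square root of F, and intervals use the fitted degrees of freedom. The floor of 3 counts equals 0.166 to 0.183 CPM, and intervals of counts cover counting error only. The fit was tested on simulated data. Alternatives were DESeq2 1.42.0, other scalings and filters, leaving out each library, a replicate block, and summed counts of near copies. Identity came from global alignment with Biopython 1.88. Motif and window searches were exact matches. Members and lists were chosen with earlier results of these data known. Genes named outside the members were the called genes of smallest p in each list, up to 4, or a single gene by the same order in lists without a call, besides Lyz2. The epithelial markers, Defa24, Defa30, Defa2, Atf4 and Cebpb were named after their values were seen. So were the goblet cell markers that were not called and the immune and mesenchymal markers other than Csf1r.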

Additional observations from a re-analysis of the deposited data

How the results depend on the processing

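Over 92 recomputed fold changes of the tested members, 80 kept their direction and side of the threshold, 8 lost a call (Pnliprp2 and Clps), 2 gained one without SGC-CBP30 replicate 1 (Itln1, -0.213, and Mmp7, -0.198) and 2 turned direction. Both turned values were of Mmp7, 0.019 when scaled by library totals and 0.075 with SGC-CBP30 replicate 2 left out, so its range was -0.198 to 0.075. Lyz1, Ang4, Habp2, Mptx2 and Nupr1 were called lower under every alternative run. The number of members called lower was 5 to 9 over all alternatives, and 0 were called higher in any. With library totals the members' median was -0.31, the count of stress response genes called was 11, and all genes split into 2907 higher and 1924 lower, against 2004 higher and 2397 lower with TMM. With no filter, 2 immune and mesenchymal markers were called (1 higher, 1 lower), and with at least 50 counts in 2 libraries 0 were. Leaving out 1 library at a time gave 2899 to 4557 called genes in all, 3 to 7 fate and niche genes, 3 to 10 goblet markers, 0 to 1 acinar markers, 1 to 2 immune and mesenchymal markers and 5 to 12 alpha-defensins, 1 of the 5 higher without SGC-CBP30 replicate 2. Goblet markers split into 3 higher and 3 lower with library totals. Replicate numbers are shared by the groups without a stated pairing, and deviations of same-numbered libraries correlated at -0.024 across genes. With the replicate block 4703 genes were called, 7 members lower among them. The cause of these shifts was not tested. Low depth limits Mptx1 and Lyz2.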
